A study of Mus musculus with 10 samples.

Results

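The genes described here encode the ErbB receptor family and its ligands: the 4 receptors Egfr, Erbb2, Erbb3 and Erbb4, the neuregulin Nrg1, and the EGF-type ligands Areg, Ereg, Hbegf, Tgfa and Btc. They are 10 of the 48709 genes in the deposited tables and were matched by gene symbol. The set was put together because Nrg1 had no counts in the libraries deposited as 5-day control and had counts in those deposited as 5-day TRULI, so the members' values at 5 days are given below as a description, with no test, under either grouping. Libraries came from supporting cells of the utricle, a vestibular organ of the inner ear. Utricles of Lfng-EGFP mice at postnatal day 21 were explanted and cultured, and GFP-positive cells were sorted.

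In all groups the vehicle was 0.1% dimethyl sulfoxide (DMSO). By sample label there were 3 control 5 d libraries (vehicle for 5 days), 3 TRULI 5 d libraries (10 µM TRULI, an inhibitor of the Hippo-pathway kinases Lats1/2, in vehicle for 5 days), 2 control withdrawal libraries and 2 TRULI withdrawal libraries. The withdrawal groups had the same 5 days followed by 5 days without treatment. The growth medium described for the explants contained epidermal growth factor, itself a ligand of Egfr, so no group was free of added ligand. The labels do not tie libraries to animals, and p-values below measure only the spread between these libraries.

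For 4 of the 10 libraries the sample label and the name under which the table was deposited give different conditions. The libraries labelled TRULI 5 d replicates 1 and 2 were deposited as control withdrawal, and those labelled control withdrawal replicates 1 and 2 were deposited as TRULI 5 d. The other 6 libraries carry 1 condition in both. Libraries are called here by their labels, and each comparison that rests on the 4 libraries is given both by label and by deposited name. The Yap target Ccn2, which inhibition of Lats kinases is known to raise, stood at 850 CPM (counts scaled to a common library size, with TMM factors over the 10 libraries) in TRULI 5 d replicate 3. It stood at 578 and 570 CPM in the control withdrawal libraries and at 2.39 and 7.71 CPM in TRULI 5 d replicates 1 and 2. The proliferation marker Mki67 was at 32.0 CPM in TRULI 5 d replicate 3, at 150 and 66.7 CPM in the control withdrawal libraries and at 0.55 and 0 CPM in TRULI 5 d replicates 1 and 2. Both genes thus go against the labels of those 4 libraries.

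Total counts ranged from 2463872 to 6255149 per library. A count of 0 allows a level of up to 3 counts, which is 0.551 to 1.40 CPM, and this limit covers counting error only. All 9 supporting-cell markers were detected in every library, with a summed level of 3037 to 10509 CPM. The sum was 3037 to 3596 CPM in TRULI 5 d replicates 1 and 2 and in both TRULI withdrawal libraries. In the other 6 libraries it was 6210 to 10509 CPM. The mitochondrial ribosomal RNA gene mt-Rnr2 took 1.45% to 2.53% of counts in TRULI 5 d replicates 1 and 2 and in both TRULI withdrawal libraries, and 13.0% to 26.4% in the other 6. In bulk samples, fewer cells of a type and less RNA per cell cannot be told apart.

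ErbB receptors are cell-surface tyrosine kinases that signal as pairs once a ligand is bound. Egfr binds EGF, transforming growth factor alpha, amphiregulin and the related EGF-type ligands. Erbb3 and Erbb4 bind neuregulins, and Erbb4 also binds some EGF-type ligands. Erbb2 has no known ligand of its own and acts as the partner of the others, and Erbb3 has little kinase activity and depends on its partner. The ligands are made as membrane-anchored precursors and released by proteases, and the receptors feed the Ras-ERK and PI3K-Akt cascades. Neuregulin-1 is best known as the signal from axons to Schwann cells.

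Nrg1 (ENSMUSG00000062991, GRCm38 chromosome 8, 31814551 to 32884029, minus strand) was the member whose level varied most from library to library. Its expected count was 0 in all 3 control 5 d libraries. In the TRULI 5 d libraries it had 1, 8 and 88 counts, or 0.18, 3.42 and 27.6 CPM. The control withdrawal libraries had 102 and 127 counts, or 30.0 and 33.7 CPM. In TRULI withdrawal, replicate 1 had 222 counts (45.6 CPM) and replicate 2 had none. Together, 4 libraries held nearly all of the 548 Nrg1 counts, namely TRULI 5 d replicate 3, both control withdrawal libraries and TRULI withdrawal replicate 1.

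By sample label, Nrg1 averaged 10.4 ± 15.0 CPM (SD, n = 3) in TRULI 5 d, with an SD larger than the mean. By deposited name, the 3 libraries named TRULI 5 d averaged 30.4 ± 3.08 CPM (SD, n = 3), and the 2 named control withdrawal averaged 1.80 ± 2.29 CPM (SD, n = 2). Taking 3 counts per library as the limit for the control 5 d libraries (1.15 CPM on average), the mean 5-day level under TRULI was at least 9.09-fold higher by label. By deposited name it was at least 26.6-fold higher. Only the control level is bounded here. The labelled mean rests on TRULI 5 d replicate 3, since replicate 1 lay under the limit at 0.18 CPM and replicate 2 was at 3.42 CPM. The single 5-day TRULI library on which label and name do not differ was at least 24.1-fold higher. These values belong to the contrast that chose the set and are no independent evidence.

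After withdrawal the 2 TRULI libraries were at opposite ends of the range. Replicate 1 was the highest of the 10 libraries and at least 63.2-fold higher than replicate 2, where the limit was 0.721 CPM. It was also at least 39.8-fold higher than the control 5 d libraries, whose lack of Nrg1 counts chose the set, so this is a description only. Grouped by deposited name, the withdrawal comparison uses none of the libraries that chose Nrg1, and there its log2 fold change of TRULI over control was 3.85 with an SE of 1.97 (edgeR adjusted p = 0.9999, higher in 1 of 2 TRULI libraries). That difference was within the spread between replicates. By label, the control withdrawal libraries were both above TRULI withdrawal replicate 2 and below replicate 1, and the log2 fold change was -0.48 (SE 1.45), given with no test because those controls are libraries that chose the set. The Nrg1 difference after withdrawal thus also changed sign with the source of the condition.

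**Figure D1:**
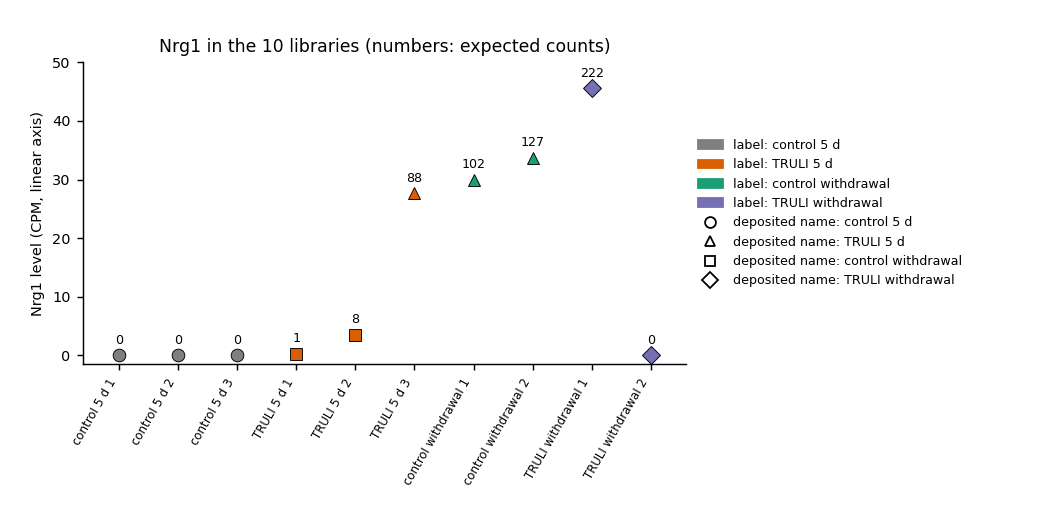
Nrg1 level in CPM (linear axis) in each of the 10 libraries on the horizontal axis, with the expected count printed above each point. Colour gives the group by sample label and marker shape the group by deposited name. The 4 libraries at 27.6 to 45.6 CPM stand apart from the 6 at 0 to 3.42 CPM.

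The annotation lists 18 Nrg1 transcripts of 285 to 5415 bases, 12 of them protein-coding, and the tables give a gene length for each library that depends on which transcripts the counts were assigned to. Among the libraries with counts, that length was 5415, 4465 and 3704 bases in the TRULI 5 d libraries and 4190 and 2486 bases in the control withdrawal libraries. In TRULI withdrawal replicate 1 it was 1074 bases, and only 4 annotated transcripts are shorter than that. The 222 counts of that library were thus assigned to shorter models than those of the other libraries. Per length this raised its lead. It had 99.4 TPM (a level per transcript length with a fixed total per library, over protein-coding genes), against 17.2 TPM in TRULI 5 d replicate 3 and 17.0 and 29.0 TPM in the control withdrawal libraries. In libraries with no counts the table gives 2070 bases, the plain mean of the annotated transcripts, so there the length holds no measurement.

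Among the receptors, Erbb3 (ENSMUSG00000018166, chromosome 10, 128567523 to 128589652) was the most abundant per length in every library. It held 69.6% to 88.3% of the summed receptor TPM, with a median of 75.2%. Egfr (ENSMUSG00000020122, chromosome 11, 16752203 to 16918158) came next with 7.31% to 21.3%. Erbb2 (ENSMUSG00000062312, chromosome 11, 98412470 to 98437716) held 1.26% to 5.66% and Erbb4 (ENSMUSG00000062209, chromosome 1, 68032186 to 69108059) 0.58% to 3.94%. The ratio of Erbb3 to Egfr TPM ran from 3.26 in TRULI 5 d replicate 3 to 11.8 in TRULI withdrawal replicate 1.

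Erbb3, the neuregulin-binding receptor with little kinase activity, stood at 403, 578 and 634 CPM in control 5 d. In TRULI 5 d it stood at 1462, 2137 and 360 CPM. The control withdrawal libraries had 380 and 748 CPM, and the TRULI withdrawal libraries 1573 and 2060 CPM. The 4 highest libraries, at 1462 to 2137 CPM, did not overlap the 6 from 360 to 748 CPM. By label these 4 came from both TRULI groups. By deposited name they are the control withdrawal (1462 and 2137 CPM) and TRULI withdrawal libraries, that is, every library named for withdrawal. The libraries named TRULI 5 d were at 360 to 748 CPM and overlapped control 5 d. The 4 highest libraries are also the 4 with mt-Rnr2 at or below 2.53% of counts. Of 11861 protein-coding genes, 12.8% lay higher in each of these 4 libraries than in each of the other 6, and 11.6% lay lower.

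Egfr, the receptor for EGF-type ligands, varied 2.31-fold over the series. It was at 151, 199 and 220 CPM in control 5 d, at 220, 300 and 171 CPM in TRULI 5 d, at 154 and 324 CPM in control withdrawal and at 201 and 350 CPM in TRULI withdrawal. Every neighbouring pair of groups in the order of the means overlapped, by label and by deposited name.

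Erbb2, the receptor with no known ligand, was at 18.5 to 39.0 CPM in 9 libraries and at 84.6 CPM (412 counts) in TRULI withdrawal replicate 1, the library with the highest Nrg1. Its partner library, TRULI withdrawal replicate 2, had 24.5 CPM. Control 5 d had 23.8, 18.5 and 25.5 CPM, and the control withdrawal libraries had 19.7 and 22.0 CPM. A single library thus held the high value.

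Erbb4, the second neuregulin receptor with kinase activity of its own, was at 20.1, 37.0 and 47.5 CPM in control 5 d and at 58.7, 27.8 and 34.8 CPM in TRULI 5 d. It was at 31.7 and 46.7 CPM in control withdrawal and at 46.6 and 29.6 CPM in TRULI withdrawal. No group was separated from another in the order of the means. Its gene length varied from 6063 to 11904 bases between libraries, so its TPM (3.18 to 9.07) moved with the transcript models as well as with the counts.

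**Figure D2:**
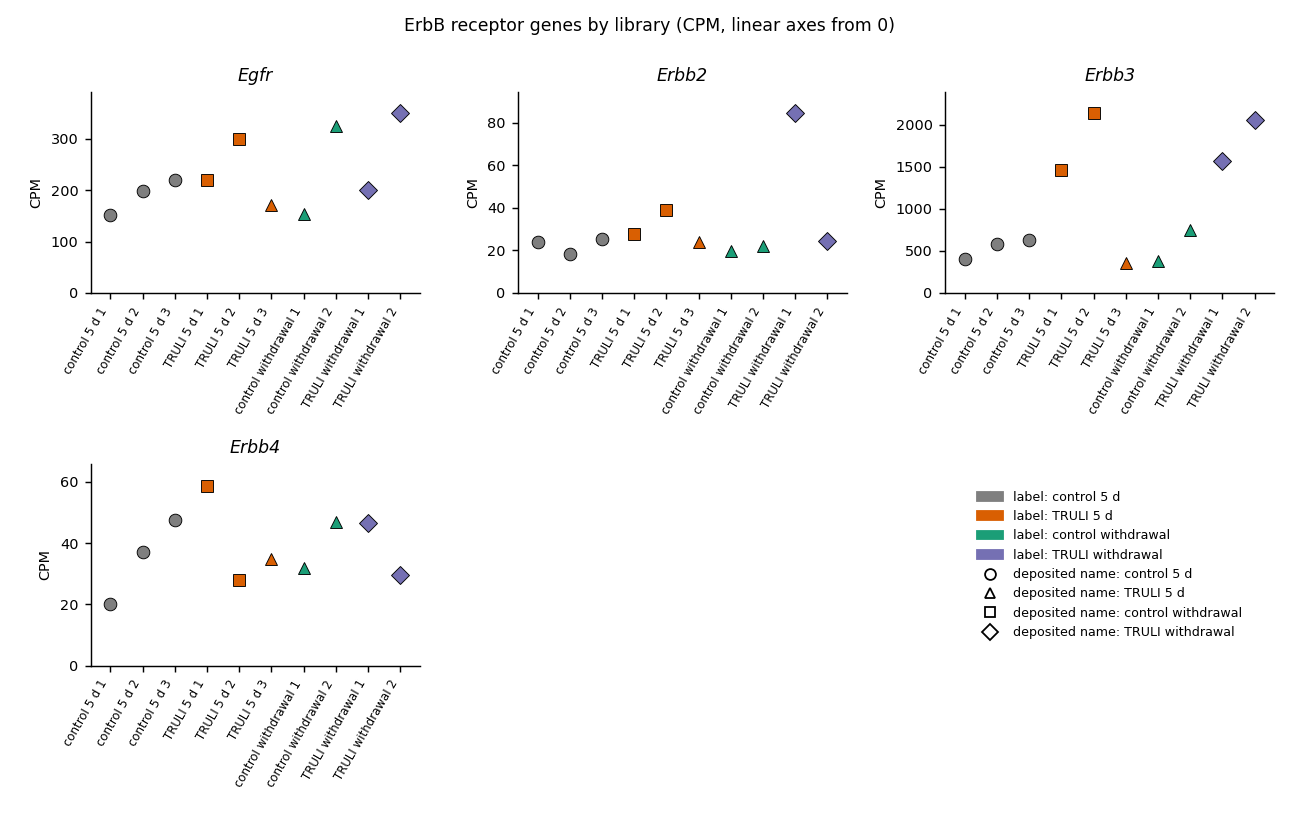
Levels of Egfr, Erbb2, Erbb3 and Erbb4 in CPM (linear axes from 0) in the 10 libraries, coloured by sample label and with marker shape by deposited name. Erbb3 lies at 1462 to 2137 CPM in 4 libraries and at 360 to 748 CPM in 6, while a single library carries the high Erbb2 value of 84.6 CPM.

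Of the ligand genes, Tgfa and Hbegf made up most of the ligand transcripts. Tgfa (ENSMUSG00000029999, chromosome 6, 86195223 to 86275719), which encodes transforming growth factor alpha, was the steadiest member and varied 1.63-fold over the series. It was at 221, 265 and 311 CPM in control 5 d, at 318, 253 and 359 CPM in TRULI 5 d, at 274 and 344 CPM in control withdrawal and at 261 and 310 CPM in TRULI withdrawal. Its groups overlapped throughout. It held 35.2% to 70.9% of the summed ligand TPM.

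Hbegf (ENSMUSG00000024486) encodes heparin-binding EGF-like growth factor, a ligand of Egfr and Erbb4. It stood at 25.6, 39.7 and 34.3 CPM in control 5 d. In TRULI 5 d it stood at 133, 204 and 51.8 CPM, so all 3 labelled libraries were above all 3 controls. How many of all genes did so was not counted. By deposited name, the TRULI 5 d libraries were at 25.6 to 51.8 CPM and overlapped control 5 d. By label, the control withdrawal libraries had 25.6 and 36.6 CPM and the TRULI withdrawal libraries 106 and 149 CPM. The 4 highest Hbegf libraries were the same 4 as for Erbb3, at 106 to 204 CPM against 25.6 to 51.8 CPM in the other 6. Such a separation, with these 4 higher, held for 12.8% of 11861 protein-coding genes. By deposited name those 4 are the control withdrawal and TRULI withdrawal libraries, that is, every library named for day 10 of culture.

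In 1 library of those 4, Hbegf exceeded Tgfa per length. That was TRULI 5 d replicate 2, with a Tgfa to Hbegf TPM ratio of 0.766. In the 6 other libraries the ratio was 3.42 to 5.52. The summed ligand TPM ran from 146 to 326 and the summed receptor TPM from 187 to 602, so the ligand to receptor ratio lay between 0.429 and 1.35.

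Btc, which encodes betacellulin, was low throughout, with 1 to 32 counts per library. Control 5 d had 2.33, 10.0 and 6.75 CPM and TRULI 5 d had 3.12, 0.86 and 2.20 CPM. Control withdrawal had 1.18 and 2.12 CPM and TRULI withdrawal 6.57 and 0.24 CPM. Several of these libraries are at or near the level that a count of 3 gives. Neighbouring groups in the order of the means overlapped, by label and by deposited name. Control 5 d (2.33 to 10.0 CPM) lay above control withdrawal by label (1.18 to 2.12 CPM). By deposited name it lay above TRULI 5 d (1.18 to 2.20 CPM), given as a description. How many of all genes separated in these ways was not counted.

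Areg, which encodes amphiregulin, had 1 count in the series, in control 5 d replicate 2. Ereg, which encodes epiregulin, had none in any library. Neither was detectable at this depth, and neither passed the filter on low counts. Both lie with Btc and the further ligand gene Epgn on chromosome 5 between 91027464 and 91402994, and Epgn had no count either. Of the 4 neighbouring genes, Btc alone was present in every library, at up to 10.0 CPM, and the others had at most 1 count in the series.

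The ErbB ligand genes outside the set that were read beside it were Egf, Epgn, Nrg2, Nrg3 and Nrg4. Egf was at 21.9, 44.0 and 57.8 CPM in control 5 d, at 38.2, 34.7 and 5.02 CPM in TRULI 5 d, at 22.3 and 18.1 CPM in control withdrawal and at 21.6 and 29.6 CPM in TRULI withdrawal. Nrg4, a ligand of Erbb4, reached 16.3 CPM in TRULI withdrawal replicate 2 and 10.1 CPM in TRULI 5 d replicate 1, and was at 0 to 2.57 CPM in the other 8 libraries. Nrg3 had no count, and Nrg2 had 3 in the series. Nrg1 was thus the only neuregulin gene above 20 CPM in any library. TRULI withdrawal replicate 2, which lacked Nrg1 counts, had the highest Nrg4 level.

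**Figure D3:**
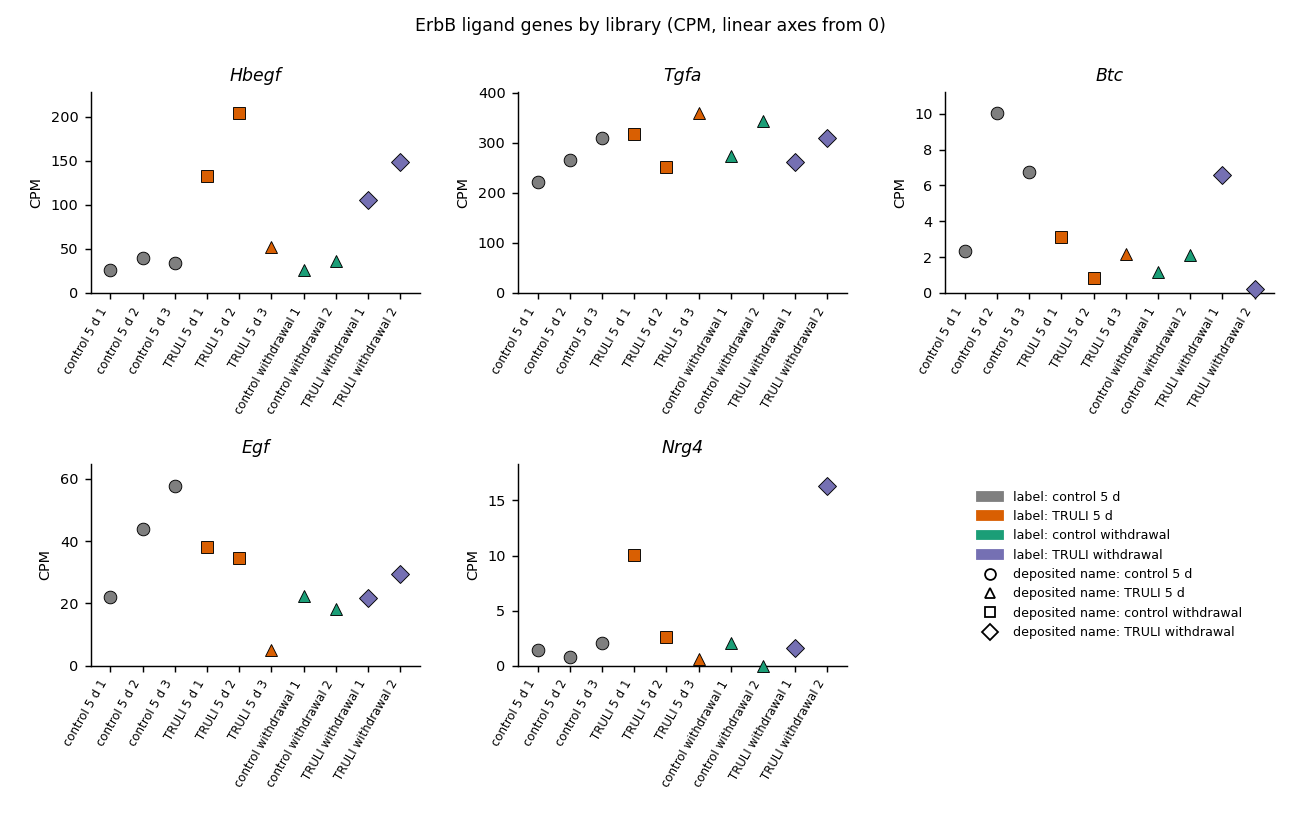
Levels of Hbegf, Tgfa, Btc, Egf and Nrg4 in CPM (linear axes from 0) in the 10 libraries, coloured by sample label and with marker shape by deposited name. Hbegf is at 106 to 204 CPM in 4 libraries and at 25.6 to 51.8 CPM in 6, whereas Tgfa stays between 221 and 359 CPM.

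Nrg1 made up 30.5% of the ligand TPM in TRULI withdrawal replicate 1, where Tgfa had its lowest share of 35.2%. That Nrg1 share depends on the short length of 1074 bases assigned to it in that library. In CPM, Nrg1 was at 45.6 there and Tgfa at 261, within the Tgfa range of the other libraries. In the 3 libraries deposited as TRULI 5 d, Nrg1 made up 6.60%, 8.0% and 12.3% of the ligand TPM, and in the other 6 libraries at most 0.41%. Hbegf made up 27.9% to 48.2% in the 4 libraries with the highest Erbb3 and 12.6% to 20.1% in the other 6. These shares compare levels per length within a library.

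**Figure D4:**
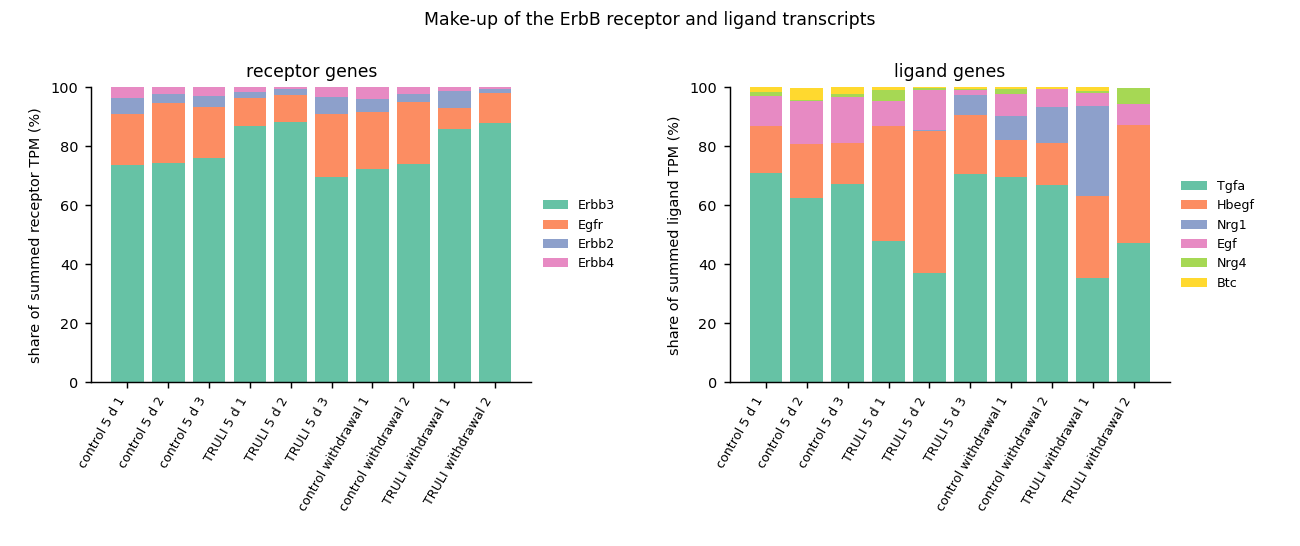
Share of each receptor gene in the summed TPM of the 4 receptors (left) and of each ligand gene in the summed ligand TPM (right), in percent, 1 bar per library named by its label. Erbb3 takes 69.6% to 88.3% of the receptor bars, and Nrg1 takes 30.5% of the ligand bar of TRULI withdrawal replicate 1. That Nrg1 share depends on the short gene length assigned in that library.

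The first comparison asked how 5 days of TRULI differed from 5 days of vehicle. A gene was called where edgeR gave an adjusted p below 0.05 and a change of more than 2-fold. By label, 1 of 10646 genes tested was called higher (0.00939%) and 0 lower (0%), while 1477 had an unadjusted p under 0.05 and DESeq2 called 208 higher and 65 lower. The called gene was Lcn2, named after its value was seen, with a log2 fold change of 3.69. Of the members, 6 passed the filter on low counts and Nrg1, Btc, Areg and Ereg did not. As a description, the fitted log2 fold changes were 1.97 (SE 0.50) for Hbegf, 1.30 (SE 0.58) for Erbb3, 0.42 (SE 0.39) for Erbb2, 0.29 (SE 0.34) for Egfr, 0.23 (SE 0.32) for Tgfa and 0.22 (SE 0.45) for Erbb4. Without TRULI 5 d replicate 3 they were 2.36 for Hbegf and 1.76 for Erbb3, and the calls over all genes were 1231 higher and 890 lower.

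By deposited name, 239 of 10952 genes were called higher (2.18%) and 120 lower (1.10%). In either direction 3.28% were called. This is the contrast that chose the set, and its member values are again a description. The Hbegf difference was 0.18 and the Erbb3 difference -0.12 on the log2 scale. Egfr, Erbb2, Erbb4 and Tgfa lay between -0.05 and 0.29. With only the 4 libraries whose condition is the same in label and name, the Hbegf and Erbb3 differences were 0.61 and -0.60, from 1 TRULI library against the 3 controls. Without control 5 d replicate 2 the calls by deposited name were 47 higher and 17 lower, without replicate 3 they were 106 and 54, and without TRULI 5 d replicate 2 of that grouping 113 and 43. Without its TRULI 5 d replicate 1, 60 genes were called lower, and without control 5 d replicate 1, 79.

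The second comparison asked what remained after withdrawal. By label, 132 of 11562 genes were called higher in TRULI withdrawal (1.14%) and 133 lower (1.15%), or 2.29% in all. These counts depended on each library, being 16 and 39 or 14 and 14 without control withdrawal replicate 1 or 2, and 1444 and 1584 or 1154 and 929 without TRULI withdrawal replicate 1 or 2. Each of those fits leaves 1 library in a group, which is assumed to vary like the other group. None of the 7 members tested passed the call. Hbegf was closest, with a log2 fold change of 2.03 (SE 0.41, edgeR adjusted p = 0.0529, both TRULI libraries above both controls). Erbb3 had a log2 fold change of 1.68 (SE 0.41, edgeR adjusted p = 0.0698, again with no overlap). How many of all genes separated the groups in this way was not counted, so the separation does not set these members apart. The unadjusted p was 0.00142 for Hbegf and 0.00370 for Erbb3, and DESeq2 called both, with adjusted p of 5.73e-04 and 0.00145. With the replicate number as a block, edgeR also called both (adjusted p = 9.99e-04 for Hbegf and 2.15e-05 for Erbb3).

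Erbb2 had a log2 fold change of 1.38 (SE 0.62, edgeR adjusted p = 0.219) in the labelled withdrawal comparison, which rests on TRULI withdrawal replicate 1. Without replicate 2 its fold change was 2.02, and without replicate 1 it was 0.23, each from a single TRULI library. Egfr differed by 0.20 (SE 0.46), Erbb4 by -0.05 (SE 0.47) and Tgfa by -0.12 (SE 0.32), each within the spread between replicates. Replicate 2 alone gave 2.25 for Hbegf and 1.87 for Erbb3, and replicate 1 alone 1.77 and 1.48. edgeR called both genes in these 2 fits, where the controls alone gave the spread, and neither gene when either control library was left out.

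By deposited name, the withdrawal comparison called 0 of 10845 genes in either direction (0%) in edgeR, with 516 at an unadjusted p under 0.05, and DESeq2 called 42 higher and 8 lower. Neither tool called a member among the 8 tested, and in edgeR none had an unadjusted p under 0.05. Erbb3 differed by 0.02 (SE 0.34) and Hbegf by -0.40 (SE 0.44) on the log2 scale. The Hbegf difference thus changed sign with the source of the condition.

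The third comparison set TRULI withdrawal against control 5 d, the only groups of 2 or more libraries in which label and deposited name give the same condition throughout. It shares its controls with the first comparison and its treated libraries with the second. Compound, days in culture and the share of mt-Rnr2 counts all differ between the 2 groups and cannot be told apart. In this contrast 1268 of 11100 genes were called higher (11.4%) and 1002 lower (9.03%), or 20.5% in all. Without control 5 d replicate 1, 2 or 3 the calls were 477 and 295, 197 and 87, or 512 and 345, and without TRULI withdrawal replicate 1 they were 1767 and 1638.

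Of 7 members tested here, 2 rose and none fell. Erbb3 was 1.76 higher on the log2 scale (SE 0.28, edgeR adjusted p = 0.00731), with both TRULI withdrawal libraries above all 3 controls. Hbegf was 1.94 higher (SE 0.33, edgeR adjusted p = 0.00810), also with no overlap. The share of all genes with no overlap in this contrast was not counted. The remaining members did not pass the test. Erbb2 differed by 1.26 (SE 0.50, edgeR adjusted p = 0.100), and it was 1.92 for TRULI withdrawal replicate 1 alone and 0.13 for replicate 2 alone. Egfr differed by 0.54 (SE 0.32), Erbb4 by 0.12 (SE 0.43) and Tgfa by 0.11 (SE 0.27). Btc differed by -0.90 (SE 1.08), and the value of -4.51 for TRULI withdrawal replicate 2 alone rests on 1 count in that library, under the limit of 3 counts. The median log2 fold change was 0.54 over the 7 members and 0.02 over all genes tested. With all 10 libraries in one fit by label, edgeR called neither Erbb3 (adjusted p = 0.0983) nor Hbegf (adjusted p = 0.0630).

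**Figure D5:**
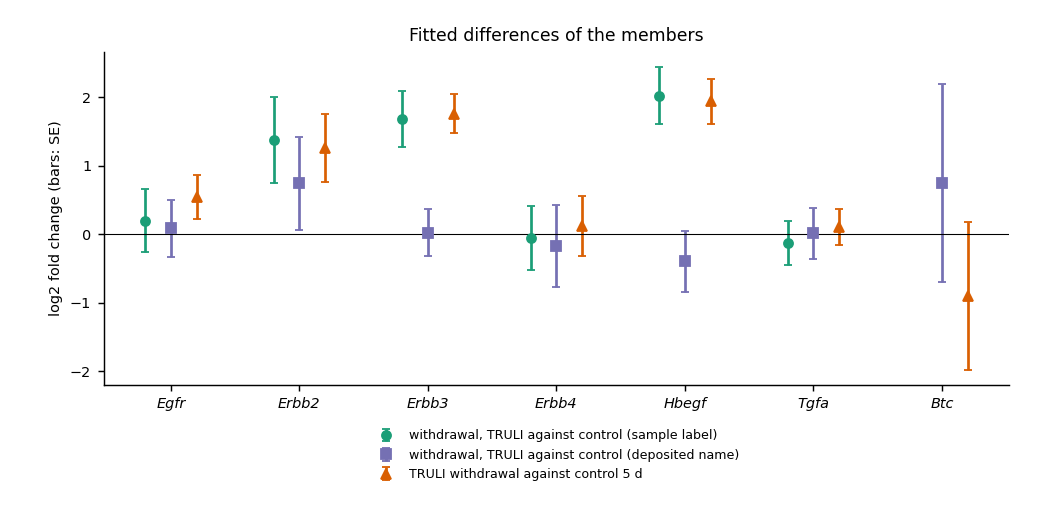
Fitted log2 fold change of 7 members, with bars of 1 SE, in the withdrawal comparison by sample label, the same comparison by deposited name, and TRULI withdrawal against control 5 d. Erbb3 and Hbegf lie between 1.68 and 2.03 in the first and the third and between -0.40 and 0.02 in the second. Btc is missing from the first, where it did not pass the filter.

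The signalling genes around the receptors were counted in lists of proteases and their regulators that release the ligands, adaptors and kinases, inhibitors and feedback genes, and ERK early-response genes. In TRULI withdrawal against control 5 d, 6 of 25 adaptor and kinase genes rose and 1 fell, with a median log2 fold change of 0.67. Over all genes tested 11.4% rose and 9.03% fell, with a median of 0.02. The largest rises were those of the kinase Src (2.49, SE 0.43, edgeR adjusted p = 0.00892), the phospholipase Plcg1 (1.76, SE 0.29, adjusted p = 0.00745) and the kinase Akt1 (1.55, SE 0.32, adjusted p = 0.0140). The Ras gene Hras fell by 1.91 on the log2 scale (SE 0.51, adjusted p = 0.0300). Among 10 shedding genes, 1 rose, the protease gene Adam9 (1.73, SE 0.32, adjusted p = 0.0105), a share near that of all genes.

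In the same contrast none of 18 inhibitor and feedback genes rose and 2 fell, a share of falls near the 9.03% of all genes. Dusp6, an ERK phosphatase, fell by 1.84 (SE 0.30, edgeR adjusted p = 0.00745), from 1037, 1396 and 1259 CPM in control 5 d to 419 and 270 CPM. Spry4, a feedback inhibitor of receptor signalling, fell by 1.01 (SE 0.31, adjusted p = 0.0492). Of 16 early-response genes tested, 6 rose and none fell, beside 11.4% and 9.03% of all genes, led by the transcription factor genes Myc (3.14, SE 0.64, adjusted p = 0.0133) and Junb (3.11, SE 0.60, adjusted p = 0.0118) and by Ier2 (1.67, SE 0.33, adjusted p = 0.0120). Junb stood at 121, 215 and 689 CPM in control 5 d and at 2799 and 3058 CPM in TRULI withdrawal. The groups did not overlap in Dusp6 or in Junb. How many of all genes separated so in this contrast was not counted, so the separation does not set these 2 genes apart.

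In the labelled withdrawal comparison 3 of 16 early-response genes rose, beside 1.14% of all genes, namely Junb (3.03, SE 0.52, edgeR adjusted p = 0.0416), Ier2 (2.66, SE 0.37, adjusted p = 0.0302) and Egr2 (2.22, SE 0.43, adjusted p = 0.0485). No gene of the adaptor, shedding or inhibitor lists was called there. By deposited name edgeR called no gene of the lists after withdrawal. Junb was at 4052 and 2447 CPM in TRULI 5 d replicates 1 and 2, so the 4 libraries with the highest Erbb3 and Hbegf were also the 4 with the highest Junb. At 5 days no gene of the lists was called by label. By deposited name Dusp6 was lower by -1.49, Ier2 by -1.23, Egr2 by -1.33 and Fos by -1.12, and Myc (3.13) and the protease inhibitor gene Timp3 (1.38) were higher, given as a description.

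Markers of other cell types were read beside the members. The summed level of 7 Schwann cell and glia markers was 63.9 to 172 CPM, highest in TRULI withdrawal replicate 1. There the myelin gene Mbp alone gave 138 CPM and the rest of the list 33.7 CPM. Mbp was at 61.3 and 67.6 CPM in TRULI 5 d replicates 1 and 2 and at 138 and 69.9 CPM in TRULI withdrawal. Those are the 4 libraries with the highest Erbb3, a receptor that Schwann cells also carry, and Mbp was at 26.1 to 43.7 CPM in the other 6. Sox10, a transcription factor gene of the same list, was at 11.1 to 35.4 CPM in the 4 libraries and at 21.6 to 47.5 CPM in the other 6. Which cells its transcripts came from was not tested. The sum of 10 hair cell markers was 38.0 to 1044 CPM, with the highest values in TRULI withdrawal replicate 1 (1044 CPM), TRULI 5 d replicate 3 (916 CPM) and control withdrawal replicate 1 (621 CPM). These are 3 of the 4 libraries with Nrg1 above 20 CPM. Control withdrawal replicate 2 had Nrg1 at 33.7 CPM with 205 CPM of hair cell markers, and control 5 d replicate 1 had no Nrg1 count with 284 CPM.

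The sum of 7 neuron markers was 0.86 to 103 CPM. Between 2 and 5 of them were detected per library, and Prph was 0 in all libraries. Neuron markers stood at 103 CPM in TRULI 5 d replicate 3, at 75.2 and 11.7 CPM in control withdrawal and at 56.9 CPM in TRULI withdrawal replicate 1, the 4 libraries with Nrg1 above 20 CPM. They stood at 0.86 to 23.8 CPM in the other 6, and control 5 d replicates 1 and 2 had 23.8 and 20.4 CPM with no Nrg1 count. Fibroblast and mesenchyme markers summed to 21.5 to 114 CPM, macrophage and leukocyte markers to at most 21.4 CPM, melanocyte markers to at most 16.7 CPM and endothelial markers to at most 3.49 CPM. In TRULI withdrawal against control 5 d, 4 of 9 supporting-cell markers fell, beside 9.03% of all genes. Among them was Lfng, whose reporter was used for the sort (-2.66, SE 0.30, edgeR adjusted p = 0.00335). Of 3 Schwann cell and glia markers tested, 1 rose, Mbp (1.55), while the median of the 3 was -0.67. Of 2 fibroblast and mesenchyme markers tested, 1 rose, Col1a2 (2.51), beside 11.4% of all genes. The part of these markers in the member differences was not tested.

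The genes whose profile over the 10 libraries was most like that of Nrg1 were found by the root-mean-square difference of scaled log2 CPM, which had a median of 1.33 over 11853 genes. The closest 5 were Fgfbp1 (0.298), Prr5l (0.354), Ifit2 (0.380), Oc90 (0.396) and Gtse1 (0.408). Fgfbp1, which encodes a carrier of fibroblast growth factors, was at 6.37 to 10.7 CPM in the 4 libraries with Nrg1 above 20 CPM and at 0 to 0.93 CPM in the other 6. Oc90, which encodes an otoconial protein, was at 7.53 to 28.5 CPM in those 4 and at most 6.85 CPM elsewhere. Gtse1, a gene of the G2 and S phases of the cell cycle, was at 8.62 to 22.0 CPM and at most 5.14 CPM. All 5 are low, and with a prior count of 0.5 in place of 2, Fgfbp1 alone stayed among the closest 5.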

How the data were processed

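RNA sequencing of sorted utricular supporting cells gave 10 libraries. Alignment by the authors used STAR and the GRCm38 (mm10) genome. The deposited tables give expected counts per gene, not normalized, with gene lengths; the counting program is not given in the sources used here. The labels describe a poly(A) kit, the study's methods a single-cell RNA kit. Of 48709 genes, 48349 matched GENCODE M21, 21695 of them protein-coding. Counts of any 2 libraries differed beyond sampling noise (chi-square per degree of freedom at least 15.3).

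Expected counts were rounded and compared with edgeR 4.0.16 (R 4.3.3; quasi-likelihood test, filterByExpr, TMM, Benjamini-Hochberg adjustment over all genes tested, 2 groups per fit). The SE is the log2 fold change divided by the root of F. TPM used the tables' effective lengths. Alternatives were DESeq2 1.42.0, its size factors, no filter, every biotype, all 10 libraries in one fit, the replicate number as a block, each library left out and the condition from the deposited name. The code was tested on simulated data. At 5 days same-numbered libraries did not deviate together by label (correlations of -0.13, 0.05 and -0.17). By deposited name they did (0.36, 0.18 and 0.30). In the withdrawal comparison the same-number correlation was 0.22 by label and 0.16 by deposited name. With 2 libraries per group, each of these is a single value.

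The members and gene lists were chosen with earlier results of these data known. Named genes were all members, the other ErbB ligands, Ccn2 and Mki67, the 5 genes closest to Nrg1, and of each list the called genes, at most 3 per direction and comparison.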

Additional observations from a re-analysis of the deposited data

How the results depend on the processing

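Counts of calls moved with the grouping of the 4 libraries with different conditions in label and deposited name, and with single libraries. TRULI 5 d against control 5 d gave 1 gene higher and 0 lower by label in edgeR. It gave 208 and 65 with DESeq2, 239 and 120 by deposited name, 470 and 226 by deposited name with the replicate number as a block, 385 and 182 by deposited name in DESeq2, and 113 and 44 with only the undisputed libraries, where 1 TRULI library stood against 3 controls that alone gave the spread. With the replicate block by label it gave 0 higher, and with all 10 libraries in one fit 1 lower. Leaving out each library, in both groupings, gave 0 to 1231 higher and 0 to 890 lower.

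TRULI withdrawal against control withdrawal gave 132 higher and 133 lower. It gave 848 and 606 with DESeq2, 740 and 554 with no filter, 967 and 870 with the replicate block, 0 and 0 with all 10 libraries in one fit, 0 and 0 by deposited name with or without the block, and 42 and 8 by deposited name in DESeq2. Leaving out each library gave 0 to 1444 higher and 0 to 1584 lower. With all 10 libraries fitted together, TRULI withdrawal against control 5 d gave 8 calls higher and 3 calls lower. It gave 894 and 699 with the block and 197 to 1767 higher and 87 to 1638 lower when each library was left out.

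Nrg1 changed sign in the withdrawal comparison, from -0.48 by label to 3.85 by deposited name (2.15 with the block and 3.69 in DESeq2). With each library left out it ran from -9.91 to 6.80, ends that rest on a group with 0 or 1 Nrg1 count and depend on the prior count. Hbegf changed sign in the withdrawal comparison by deposited name (-0.40, -0.38 with the block and -0.40 in DESeq2), as did Tgfa from its small negative value (0.015, 0.019 and 0.0078). With each library left out, in both groupings, the withdrawal log2 fold changes ran -0.36 to 0.84 for Egfr, -0.44 to 2.02 for Erbb2, -0.24 to 2.26 for Erbb3, -0.60 to 0.45 for Erbb4, -0.68 to 2.32 for Hbegf and -0.28 to 0.18 for Tgfa. Against control 5 d they ran -0.23 to 0.43 for Erbb4, -0.0090 to 0.24 for Tgfa and -4.51 to 0.050 for Btc, and the calls of Erbb3 and Hbegf held in these fits, though not with all 10 libraries in one fit. The causes of these differences were not tested. With a prior count of 0.5, 1 of the 5 genes closest to Nrg1 was the same.

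Same-numbered libraries are not stated to share an animal, so the block is an alternative only. By deposited name at 5 days each library correlated best with its own number. The block ended no call of a member, and it added Erbb3 and Hbegf to the labelled withdrawal calls. The alternatives by deposited name in DESeq2 and with each library left out were chosen after seeing the data. Depth limits Nrg1, Btc and Nrg4, each with 2 or more libraries under 3 counts.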
